A study of Mus musculus with 30 samples.

Results

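RNA levels of 34 genes of fatty acid uptake and oxidation were examined in mouse cardiac myocytes. They were chosen by gene symbol from a list of uptake, activation, carnitine shuttle, beta-oxidation, thioesterase and regulator genes, and all 34 were found among the 52550 genes of the count table. Fatty acids are a main fuel of the adult heart. They enter the myocyte through carriers and binding proteins, are joined to coenzyme A, cross the inner mitochondrial membrane as carnitine esters, and are shortened in the matrix by the dehydrogenases, hydratases and thiolases of beta-oxidation, which pass their electrons to the respiratory chain. Thioesterases split acyl-CoA back into free fatty acid, malonyl-CoA restrains entry through the carnitine shuttle, and the nuclear receptors PPAR alpha and ERR alpha, with the coactivator PGC-1 alpha, drive transcription of many of these genes.

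The 30 libraries fell into 6 groups of 5. These were exercised heterozygotes and exercised wild type at 6 months, regular-activity heterozygotes and wild type at 6 months, and regular-activity heterozygotes and wild type at 3 months. The heterozygotes carry the genotype Myh6-Cre:DspW/F, in which Cre recombinase is driven by the Myh6 promoter, active in cardiac myocytes, and 1 allele of Dsp, the gene of the desmosomal protein desmoplakin, is floxed. The series title calls this model haplo-insufficient for desmoplakin. Whether the wild-type mice carry Cre is not given, so the effect of Cre and that of the Dsp allele cannot be told apart. Exercise was endurance running on a treadmill. The design text gives 3 months with it and leaves unclear whether this is its length or the time since. The labels do not say that the replicates of a group are separate animals, so p-values measure the spread between these libraries, which may be in part technical.

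Depth ran from 11232143 to 23710331 counts per library. Transcripts of the mitochondrial genome took 29.4% ± 6.12 of the counts in exercised heterozygotes, 28.3% ± 10.6 in exercised wild type, 19.9% ± 6.32 and 15.6% ± 1.68 in regular-activity heterozygotes and wild type at 6 months, and 10.99% ± 2.15 and 12.3% ± 1.77 in heterozygotes and wild type at 3 months (SD, n = 5 each). Of the 23 spike-in controls in the table, 0 had an entry (a value that is not missing) in exercised libraries. In each regular-activity library 11 to 18 had an entry at 6 months and 3 at 3 months. Age and exercise therefore cannot be told apart from a separate processing of these 3 sets, while each set holds both genotypes. Dsp averaged 847.8 ± 90.5 CPM in exercised heterozygotes and 1561 ± 428 CPM in exercised wild type (log2 fold change -0.88, edgeR adjusted p = 0.0287). It was not called lower at 6 months with regular activity (-0.33, edgeR adjusted p = 0.657) or at 3 months (-0.50, edgeR adjusted p = 0.312). Its count is over the whole gene, so transcripts of a recombined allele may add to it. All 12 ventricular myocyte markers were detected in every group, with 82820 to 105100 summed CPM in regular-activity heterozygotes and 92100 to 114000 in wild type at 6 months. Libraries stood apart in both exercised groups: exercised heterozygote 4 had the lowest value of its group in 27 of the 34 genes, and exercised wild type 1 in 23 of 34. Exercised heterozygote 4 also held the most fibroblast marker RNA of its group (770.2 summed CPM over 10 markers, group median 168), and exercised wild type 1 the highest mitochondrial share (46.9%). Results on the exercised groups are given with and without these libraries where they move.

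Levels are given as CPM, the counts per 1e+06 counts of the scaled library size, and a gene was called when its adjusted p was under 0.05 in edgeR's quasi-likelihood test over 15587 genes. All 34 genes passed the filter on low counts. In bulk RNA, fewer myocytes in a sample and less RNA per myocyte cannot be told apart.

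Start regions are shown for genes on which the results turn. Each is RefSeq's window of 250 bases before to 50 bases after the annotated start on GRCm38.p6, read 5′ to 3′ on the gene's own strand. Hadha and Hadhb, the alpha and beta subunits of the mitochondrial trifunctional protein (ENSMUSG00000025745 and ENSMUSG00000059447), lie head to head on chromosome 5. Their gene starts are 86 bases apart in GENCODE M21 (Hadha 30118304 to 30155162, minus strand, and Hadhb 30155248 to 30184593, plus strand). The capitals in the Hadha window (chr5:30154931-30155230, minus strand) mark the 228 bases that also belong to the Hadhb window. Acadl (ENSMUSG00000026003), Acads (ENSMUSG00000029545) and Acot7 (ENSMUSG00000028937) lie on chromosomes 1, 5 and 4. In the windows of Acadl (chr1:66863260-66863559, minus strand), which rose with exercise, Acads (chr5:115119297-115119596, minus strand), which fell with exercise, and Acot7 (chr4:152185358-152185657, plus strand), which fell in heterozygotes at 6 months and whose window lies at a start inside the GENCODE gene (152178134 to 152271855), the capitals mark the 50 bases after the start.
Hadha: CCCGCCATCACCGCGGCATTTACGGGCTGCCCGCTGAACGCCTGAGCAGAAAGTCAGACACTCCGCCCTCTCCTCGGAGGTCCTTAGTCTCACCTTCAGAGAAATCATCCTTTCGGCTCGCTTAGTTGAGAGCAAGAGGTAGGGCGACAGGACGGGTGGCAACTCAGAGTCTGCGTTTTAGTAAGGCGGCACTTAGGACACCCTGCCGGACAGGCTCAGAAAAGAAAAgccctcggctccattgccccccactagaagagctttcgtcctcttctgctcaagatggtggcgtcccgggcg
Acadl: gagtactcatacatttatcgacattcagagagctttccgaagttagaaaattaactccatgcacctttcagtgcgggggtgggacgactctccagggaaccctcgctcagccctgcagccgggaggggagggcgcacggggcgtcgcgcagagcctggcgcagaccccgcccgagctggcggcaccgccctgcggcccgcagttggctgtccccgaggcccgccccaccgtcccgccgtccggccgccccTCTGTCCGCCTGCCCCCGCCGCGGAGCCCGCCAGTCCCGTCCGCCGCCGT
Acads: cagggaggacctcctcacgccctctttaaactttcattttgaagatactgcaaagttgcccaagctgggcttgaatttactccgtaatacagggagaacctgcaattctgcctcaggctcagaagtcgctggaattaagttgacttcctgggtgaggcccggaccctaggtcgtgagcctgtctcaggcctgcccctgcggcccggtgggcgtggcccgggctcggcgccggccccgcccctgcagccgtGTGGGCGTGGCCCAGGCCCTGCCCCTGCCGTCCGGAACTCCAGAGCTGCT
Acot7: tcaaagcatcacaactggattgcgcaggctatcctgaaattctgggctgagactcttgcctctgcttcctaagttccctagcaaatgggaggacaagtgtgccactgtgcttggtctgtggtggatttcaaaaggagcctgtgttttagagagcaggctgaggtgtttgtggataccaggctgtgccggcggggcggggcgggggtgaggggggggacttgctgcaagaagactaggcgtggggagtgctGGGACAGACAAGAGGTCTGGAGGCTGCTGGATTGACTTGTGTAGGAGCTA

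RefSeq windows were found for 29 of the 34 genes, 32 windows in all, and not for Acaa2, Acot13, Cpt1b, Crat and Decr1. The direct repeat of AGGTCA with 1 base between its copies (DR1), the form of site that PPAR and RXR dimers bind, was in 0 of the 32 windows on either strand and in 0.0396% of all 32851 windows. The extended site TCAAGGTCA, bound by ERR receptors, was in 0 of 32 (0.423% of all windows). The single half-site AGGTCA, which both of these contain, was in 7 of 32 (21.9%, against 16.3% of all windows), those of Acacb, Acadm, Acadvl, Cd36, Cpt1a, Echs1 and Ucp3. CCAAT was in 14 windows of 13 genes (43.8%, against 37.4%). CACGTG was in 1 (3.12%, against 7.15%), and TATAAA in 1 (3.12%, against 13.6%). None of these 6 motifs was in the 4 windows printed above. The windows had a median GC content of 60.5%, against 52.67% over all windows.

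Per kilobase of exon, levels spanned from Fabp3, the cytosolic fatty acid binding protein of heart, at 3431 ± 369 CPM per kb in wild type at 3 months, to Cpt1b at 1.85 ± 0.654 CPM per kb (SD, n = 5). Cd36, the membrane carrier, was next at 497 ± 73.4 CPM per kb, then Acaa2, a thiolase of the cycle, at 397 ± 37.2 CPM per kb. Hadha and Hadhb stood close together at 224 ± 8.12 and 219.8 ± 21.7 CPM per kb, a difference within their spread. The length used was that of a gene's exons merged over its transcripts, 8730 bases for Hadha and 6595 for Hadhb. Their longest transcripts have 4017 and 4388 bases, so their closeness depends on this choice, as do the other levels per kb. The regulators were low, with Esrra at 48.3 ± 3.09, Ppargc1a at 17.8 ± 4.17 and Ppara at 15.3 ± 2.86 CPM per kb. The last pair did not differ beyond its spread. Some counts are uncertain. Cpt1b, the muscle form of carnitine palmitoyltransferase 1, shares 81.4% of its exon bases on the same strand with the overlapping gene Gm44502 of GENCODE M21. The ID of Gm44502 is not among the counted genes, so whether it took reads from Cpt1b is not known. Etfb shares 58.2% on the same strand with Gm45233 and Mir7051. Acadvl shares 42.9% with Dvl2 on the opposite strand. The transcripts of the neighbouring genes Acot1 and Acot2 were 94.3% identical over 1330 aligned bases, so reads can be exchanged between them.

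**Figure D1:**
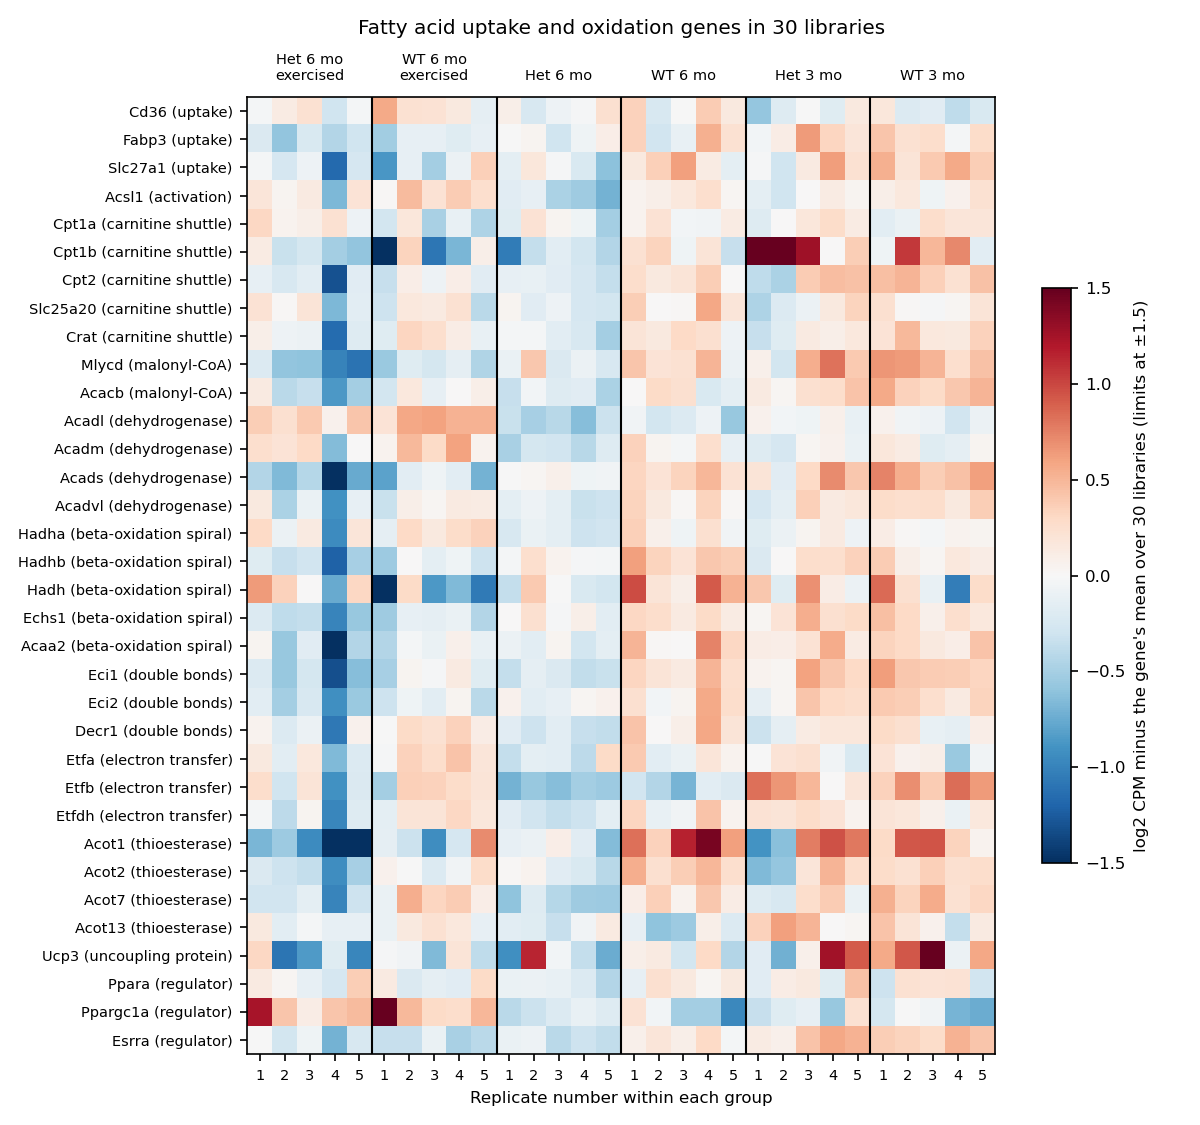
Level of each of the 34 genes (rows, with their role) in each of the 30 libraries (columns, by group and replicate), as log2 CPM minus the gene's mean over all libraries. Regular-activity heterozygotes at 6 months are below regular-activity wild type in most rows, and exercised heterozygote 4 is the lowest of its group in 27 of 34.

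At 6 months with regular activity, heterozygotes had lower mean fitted levels than wild type for 31 of the 34 genes. The median log2 fold change was -0.35, against 0.00 over all 15587 genes, of which 50.5% were lower. Acot7 was the 1 gene of 34 called, and it was lower, against 0.135% of all genes called, 0.0321% higher and 0.103% lower. In all, 21 of 34 had an unadjusted p under 0.05, against 8.79% of all genes. The 34 genes together took 1.495% ± 0.0643 of the scaled counts in heterozygotes and 1.88% ± 0.215 in wild type (SD, n = 5).

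Acot7, an acyl-CoA thioesterase that cleaves long-chain acyl-CoA, had 33.6, 44.7, 38.0, 35.2 and 34.98 CPM in the 5 regular-activity heterozygotes, against 54.8, 65.5, 53.3, 67.7 and 55.3 CPM in the 5 wild types. All heterozygotes lay below all wild types. The fall was 1.59-fold (log2 fold change -0.67, SE 0.14, edgeR adjusted p = 0.0392). The call was lost when heterozygote 1, 3, 4 or 5 or wild type 1, 2, 4 or 5 was left out, with a highest edgeR adjusted p of 0.22, while the log2 fold change stayed between -0.74 and -0.62. It was also lost with DESeq2 size factors (edgeR adjusted p = 0.0598), with the replicate block (0.0597) and without mitochondrial and top genes (0.058). In the exercised groups Acot7 had 41.9, 42.1, 46.2, 25.7 and 41.4 CPM in heterozygotes, against 47.6, 74.8, 64.1, 66.7 and 54.8 CPM in wild type. Again no library of one genotype overlapped the other, and the fall was 1.56-fold (-0.64, SE 0.141, edgeR adjusted p = 0.0281). That call was lost without exercised heterozygote 4 or exercised wild type 2, 3 or 4 (highest edgeR adjusted p = 0.125), and in a fit of the 2 exercised groups alone (edgeR adjusted p = 0.198). At 3 months it had 44.7, 43.3, 61.3, 66.6 and 47.8 CPM in heterozygotes, against 73.9, 64.4, 75.2, 59.9 and 63.4 CPM in wild type, with overlap and no call (-0.35, SE 0.14, edgeR adjusted p = 0.324).

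**Figure D2:**
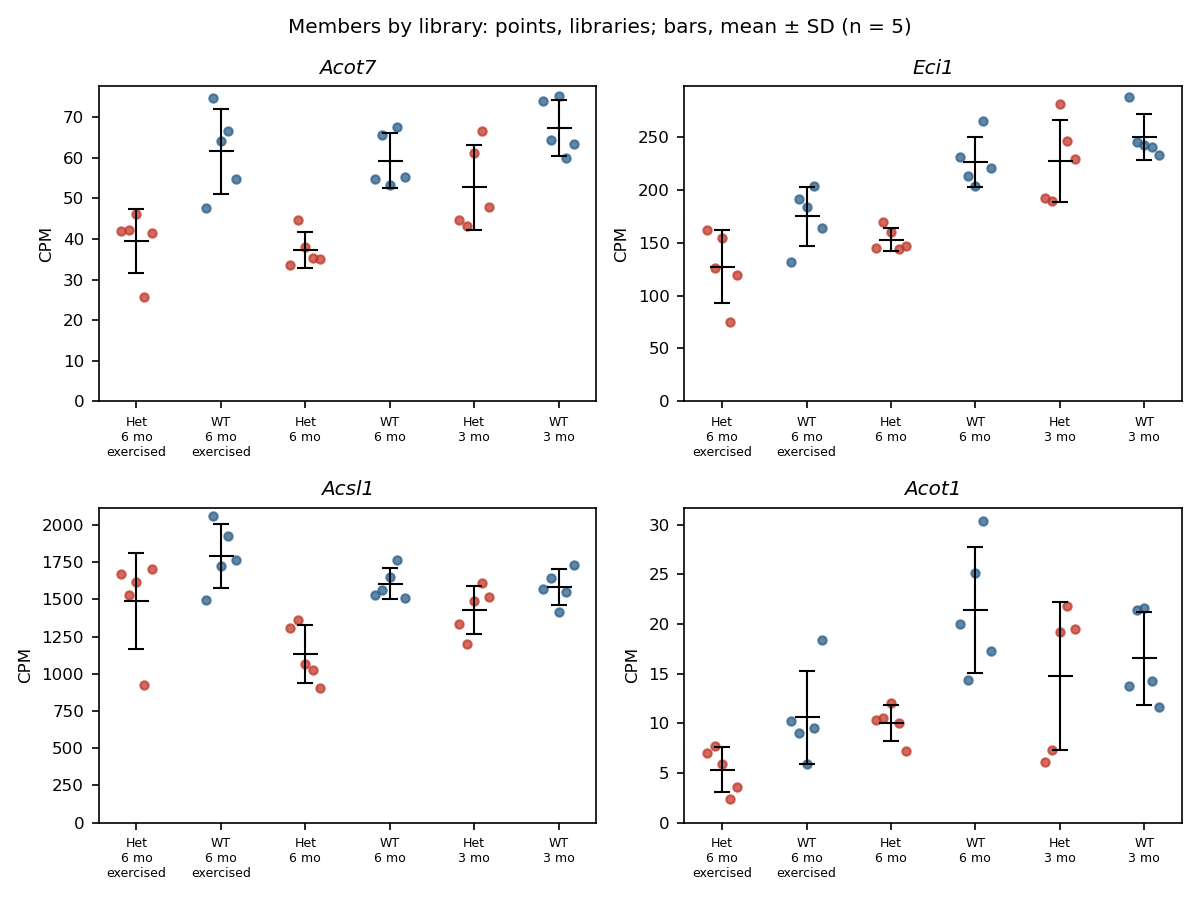
CPM of Acot7, Eci1, Acsl1 and Acot1 in every library (points; red heterozygotes, blue wild type) with mean ± SD (bars, n = 5) for the 6 groups. In the regular-activity groups at 6 months each heterozygote lies below each wild type for all 4 genes.

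In 13 of the 34 genes every regular-activity heterozygote lay below every wild type at 6 months (2.16% of all genes tested did), and in 0 of 34 every heterozygote lay above (1.86% of all genes). By role, these were the activating enzyme Acsl1, the carnitine palmitoyltransferase Cpt2, the acyl-CoA dehydrogenases Acadm, Acads and Acadvl for medium, short and very long chains, Hadha, the enzymes for unsaturated fatty acids Eci1 and Decr1, Etfdh, which hands electrons to ubiquinone, the thioesterases Acot1, Acot2 and Acot7, and the receptor gene Esrra. In the exercised groups the count was 2 of 34, Acot2 and Acot7 (0.828% of all genes), with 0 above (1.01%), and at 3 months 0 of 34 below (0.757%) and 0 above (0.642%).

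Eci1, an isomerase that moves the double bond of unsaturated acyl-CoA, had 145, 169, 160.1, 144 and 147 CPM in regular-activity heterozygotes, against 232, 213, 204, 265 and 221 CPM in wild type. Its log2 fold change was -0.57 (SE 0.143, edgeR adjusted p = 0.118). Acsl1, the main long-chain acyl-CoA synthetase of heart, had 1309, 1362, 1064, 1025 and 907 CPM in heterozygotes, against 1530, 1565, 1647, 1764 and 1512 CPM in wild type (-0.50, SE 0.131, edgeR adjusted p = 0.147). Both genotypes were separate for each of these genes, yet neither passed the test over all genes. Decr1, the dienoyl-CoA reductase, had 297, 268, 298, 262 and 257 CPM in heterozygotes, against 449.6, 335, 353, 497 and 382 CPM in wild type (-0.55, SE 0.148, edgeR adjusted p = 0.192). Acot1, the cytosolic thioesterase next to Acot2, had 10.4, 10.6, 12.03, 10.04 and 7.18 CPM in heterozygotes, against 19.97, 14.4, 25.2, 30.3 and 17.3 CPM in wild type. It had the lowest log2 fold change of the 34 (-1.09, SE 0.337, edgeR adjusted p = 0.284), with a wide spread in wild type. In a test of the 2 groups alone, Eci1, Decr1, Acot1 and Acot2 were called besides Acot7, where 1.51% of all genes were called. Limma-voom with quality weights called 11 of the 34, all lower, where it called 3.05% of all genes.

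Role by role, all 3 uptake genes had lower fitted levels in regular-activity heterozygotes (log2 fold changes -0.39 to -0.14), as did all 5 carnitine shuttle genes (-0.51 to -0.15), both malonyl-CoA genes (-0.30 and -0.28), all 4 dehydrogenases (-0.43 to -0.21), all 5 genes of the spiral (-0.65 to -0.19), all 3 for double bonds (-0.57 to -0.25) and all 3 of electron transfer (-0.40 to -0.22). The 3 genes with higher fitted levels were Acot13 (0.14), Ppargc1a (0.06) and the uncoupling protein gene Ucp3 (0.04). Apart from Acot7, none of these passed the test.

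Markers of other cells moved with the same comparison. All 10 fibroblast markers had higher fitted levels in regular-activity heterozygotes (median log2 fold change 1.01), at 347 to 514 summed CPM against 183 to 213 in wild type. All 9 macrophage markers tested were higher (1.40), at 53.5 to 107 summed CPM over 10 markers against 18.1 to 34.5. All 10 endothelial markers were also higher (0.40), and 10 of 12 ventricular myocyte markers were lower (-0.24). Of these and the adipocyte markers, 0 were called in this comparison (0.135% of all genes), and the part of these cells in the lower fatty acid genes was not tested. Of 6 adipocyte markers tested, 5 had lower fitted levels in heterozygotes (median -0.61), and adipocytes also express several of these genes. The adipocyte markers had 19.2 to 27.99 summed CPM over 8 genes in heterozygotes and 15.2 to 39.2 in wild type.

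With exercise, 29 of the 34 genes had lower fitted levels in heterozygotes than in wild type, against 51.4% of all genes. The median log2 fold change of the 34 was -0.27, against -0.01 over all genes. Of the 34, 1, Acot7, was called, and lower (0.404% of all genes, 0.225% higher and 0.18% lower). Etfdh was at -0.42 (SE 0.131, edgeR adjusted p = 0.171), Eci1 at -0.46 (SE 0.144, edgeR adjusted p = 0.178), Acot2 at -0.47 (SE 0.159, edgeR adjusted p = 0.243) and Acot1 at -0.996 (SE 0.353, edgeR adjusted p = 0.274). The highest were Hadh at 0.82 (edgeR adjusted p = 0.36) and Cpt1a, the liver form of the outer membrane transferase, at 0.34 (edgeR adjusted p = 0.312). The 34 genes took 1.47% ± 0.283 of the scaled counts in exercised heterozygotes and 1.72% ± 0.138 in exercised wild type (SD, n = 5). At 0.999%, exercised heterozygote 4 was the lowest of all 30 libraries. The other exercised heterozygotes had 1.73%, 1.475%, 1.635% and 1.531%, against 1.524% to 1.875% in the exercised wild types. In the exercised comparison all 10 fibroblast and all 9 macrophage markers tested had higher fitted levels in heterozygotes (medians 0.61 and 0.63), while 8 of 10 endothelial, 8 of 12 ventricular myocyte and 5 of 6 adipocyte markers had lower ones (-0.37, -0.20 and -2.96). Of these markers 0 were called. Summed over 8 genes, the adipocyte markers had 19.1 to 30.7 CPM in exercised heterozygotes and 25.0 to 57.1 CPM in exercised wild type, with overlap. Without exercised heterozygote 4 the fibroblast and macrophage medians were -0.13 and 0.00, with 3 of 10 and 5 of 9 higher. Summed fibroblast markers then averaged 154 CPM in heterozygotes, against 171 CPM in wild type. Without exercised wild type 1 the endothelial median was 0.09, with 6 of 10 higher. With both libraries left out the fibroblast, macrophage, endothelial and adipocyte medians were 0.28, 0.63, 0.04 and -3.83. The part of these cells in the result was not tested. Without exercised heterozygote 4 and exercised wild type 1 the median of the 34 genes was -0.20, and Acot7 was still called. At 3 months 22 of 34 were lower (median -0.08), against 50.26% of all genes (median -0.002). Of the 34 genes 0 were called there in edgeR (0.192% of all genes, 0.167% higher and 0.0257% lower). At this age heterozygotes 1 and 2 each had the lowest value of their group in 13 of 34 genes, and wild type 4 in 16. There edgeR gave 1 of 34, Acot7, at an unadjusted p under 0.05, against 1722 of all 15587 genes, and 0 of the 34 were called under the other fits tried, DESeq2 and limma-voom among them.

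**Figure D3:**
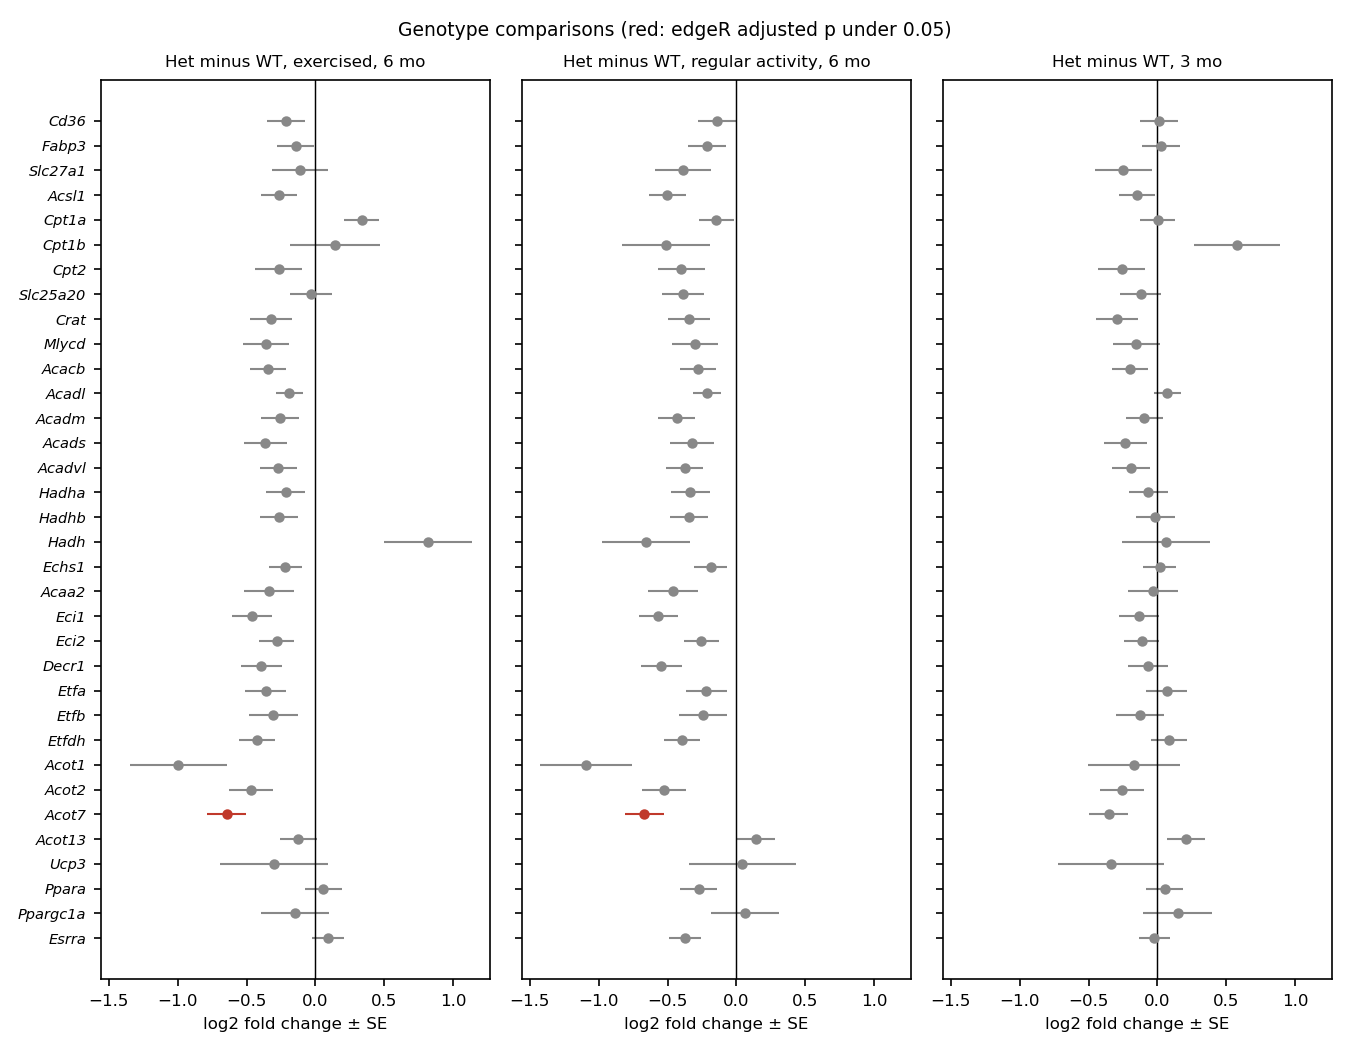
Log2 fold change ± SE of each gene, heterozygotes minus wild type, in the exercised groups (left), the regular-activity groups at 6 months (middle) and at 3 months (right), on 1 shared axis. Points left of the line are lower in heterozygotes, which holds for 29, 31 and 22 of 34 genes in the 3 panels, and Acot7 is the only called gene (red) in the left and middle panels.

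With exercise, the dehydrogenase genes Acadl and Acads changed in opposite directions, and the genes of the spiral that were called were lower. In wild type 9 of the 34 genes were called, 2 higher and 7 lower (9.69% of all genes, 4.64% higher and 5.05% lower), and in heterozygotes 7, 2 higher and 5 lower (8.82% of all genes, 5.34% higher and 3.48% lower). In wild type 6 of 34 genes had every exercised library below every regular-activity one (5.58% of all genes) and 2 above (5.04%). In heterozygotes 4 lay below (4.02%) and 2 above (5.1%). The median log2 fold change was -0.21 in wild type and -0.01 in heterozygotes.

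Acadl, the long-chain acyl-CoA dehydrogenase, had 257, 333, 338, 321 and 321 CPM in exercised wild type, against 215, 185, 194, 213 and 151 CPM in regular-activity wild type. It rose 1.64-fold (log2 fold change 0.71, SE 0.0997, edgeR adjusted p = 2.32e-05). In heterozygotes it had 289, 264, 294, 234 and 297 CPM with exercise, against 178, 158, 168, 143 and 179 CPM without, a 1.67-fold rise (0.74, SE 0.0998, edgeR adjusted p = 1.41e-05). The groups did not overlap in either genotype, and the call held in every fit that left out 1 library. Acads, which acts on short chains, moved the other way. It had 123, 193, 205, 192 and 132 CPM in exercised wild type, against 269, 249, 271, 304 and 250.5 CPM in regular-activity wild type, a 1.59-fold fall (-0.67, SE 0.158, edgeR adjusted p = 0.00581). In heterozygotes it had 159, 136, 159.6, 76.4 and 127 CPM with exercise, against 214, 220.1, 226, 206 and 207 CPM without (-0.71, SE 0.158, edgeR adjusted p = 0.00382). When each library's trends on GC content and transcript length were removed, Acads was no longer called in either genotype (-0.35 in wild type and -0.44 in heterozygotes).

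Ppargc1a, which encodes PGC-1 alpha, rose with exercise. It had 451, 204, 179, 175 and 206 CPM in exercised wild type, against 169, 143, 102, 102 and 74.8 CPM in regular-activity wild type (log2 fold change 1.04, SE 0.25, edgeR adjusted p = 0.00827). In heterozygotes it had 345, 196, 158, 194 and 203 CPM with exercise, against 110.2, 117, 127, 136 and 128 CPM without (0.83, SE 0.25, edgeR adjusted p = 0.036). In both genotypes exercised library 1 stood far above the other 4, and even the lowest exercised library lay above the highest regular-activity one. Without exercised wild type 1 the log2 fold change in wild type was 0.69 (edgeR adjusted p = 0.0389). In a fit of the 2 wild-type groups alone Ppargc1a was not called (1.04, edgeR adjusted p = 0.0582). In heterozygotes the call was lost without exercised heterozygote 1, 2 or 5 or any 1 regular-activity heterozygote (highest edgeR adjusted p = 0.179). It was also lost with GC and length trends removed (0.66) and without the filter on low counts (0.79, edgeR adjusted p = 0.115). Ppara, the gene of PPAR alpha, was not called in either genotype. Esrra had 128, 128, 152, 116 and 123 CPM in exercised wild type, against 171, 184, 173, 199.5 and 159.8 CPM in regular-activity wild type, and fell (-0.46, SE 0.115, edgeR adjusted p = 0.00887). Among heterozygotes, exercised minus regular activity was 0.01 on the log2 scale. The difference between both exercise effects was not called (0.46, SE 0.162, edgeR adjusted p = 0.848).

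Besides Acads, 4 genes were called lower with exercise in both genotypes, Hadhb, Echs1, Mlycd and Eci2. Hadhb, the thiolase subunit, had 893, 1302, 1177, 1245 and 1047 CPM in exercised wild type, against 1995, 1640, 1499, 1719 and 1683 CPM in regular-activity wild type (log2 fold change -0.59, SE 0.139, edgeR adjusted p = 0.00558). In heterozygotes it had 1149, 1018, 1063, 559 and 920.2 CPM with exercise, against 1268, 1547, 1348, 1283 and 1277 CPM without (-0.51, SE 0.139, edgeR adjusted p = 0.0173). No exercised library reached a regular-activity one of its genotype. Echs1, the short-chain enoyl-CoA hydratase, was at -0.48 in exercised wild type (edgeR adjusted p = 0.00782), and for heterozygotes at -0.52 (edgeR adjusted p = 0.00512). Mlycd, which degrades malonyl-CoA, was at -0.58 in exercised wild type (edgeR adjusted p = 0.0248), and for heterozygotes at -0.64 (edgeR adjusted p = 0.0149). Its call ended in both genotypes with GC and length trends removed (-0.28 and -0.39), in wild type without exercised library 1 or 5 or regular-activity library 1 or 4, and in heterozygotes without regular-activity library 2. Eci2 was at -0.40 in exercised wild type (edgeR adjusted p = 0.0358), and for heterozygotes at -0.43 (edgeR adjusted p = 0.0267). Its call ended in wild type without exercised library 1, 3 or 5 or regular-activity library 1, 4 or 5, and in heterozygotes without exercised library 4 or regular-activity library 1 or 4. In heterozygotes the Hadhb call also ended without regular-activity library 2 (edgeR adjusted p = 0.0537). A fit of the compared heterozygote groups alone ended the calls of Hadhb (edgeR adjusted p = 0.0694) and Eci2 (0.055). The replicate block ended that of Eci2 in wild type (edgeR adjusted p = 0.0574). Without exercised wild type 1 and exercised heterozygote 4 together, a choice made after seeing the data, 11 genes were called in heterozygotes, with Acsl1 (0.50), Acadm (0.49), Hadha (0.33) and Etfb (0.57) added on the higher side, and 9 in wild type. Markers of cell types also moved with exercise. In heterozygotes all 9 macrophage, 8 of 10 fibroblast, 9 of 10 endothelial and 5 of 6 adipocyte markers had lower fitted levels (medians -0.51, -0.53, -0.49 and -0.31) with 0 called, and 9 of 12 ventricular myocyte markers had higher ones (0.15), 3 of them called. Without exercised heterozygote 4 all 10 fibroblast markers were lower (-1.44, 6 called), as were all 9 macrophage markers (-1.31, 5 called). In wild type 9 of 10 fibroblast and 5 of 9 macrophage markers were lower (-0.21 and -0.08), and 8 of 10 endothelial and 5 of 6 adipocyte markers were higher (0.31 and 1.58), with 0 called. Of the ventricular myocyte markers 7 of 12 were higher in wild type (0.05), 2 of them called. Without exercised wild type 1, 8 of 10 endothelial markers were lower in wild type (-0.21, 1 called). So were all 10 fibroblast markers (-0.71) and 8 of 9 macrophage markers (-0.67), with 0 called. The part of these cells in the exercise results was not tested.

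**Figure D4:**
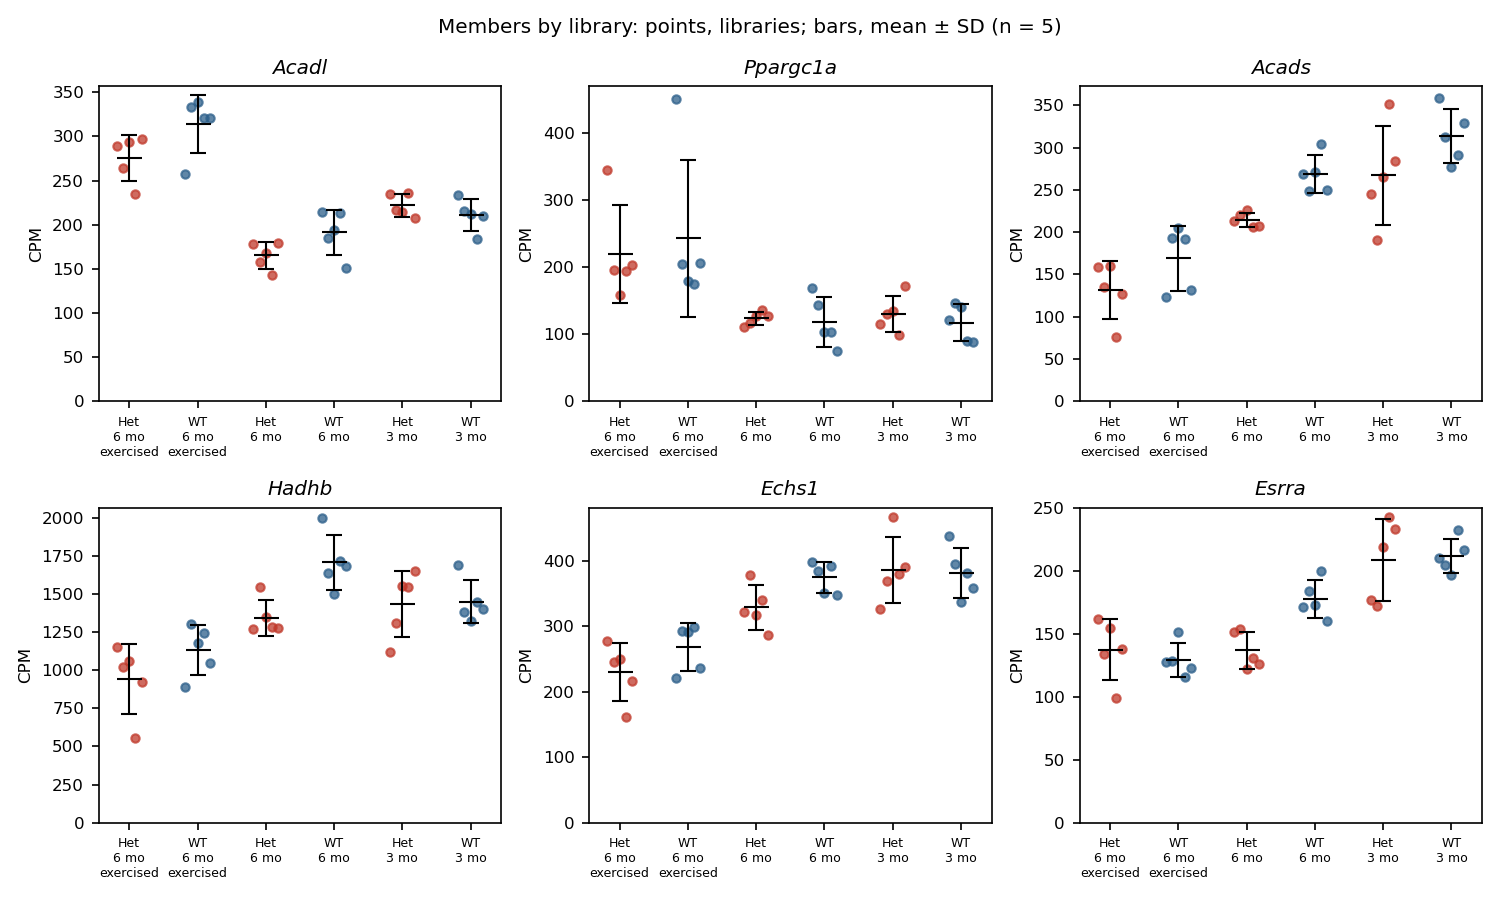
CPM of Acadl, Ppargc1a, Acads, Hadhb, Echs1 and Esrra in every library (points; red heterozygotes, blue wild type) with mean ± SD (bars, n = 5) for the 6 groups. In both genotypes the exercised libraries lie above the regular-activity ones at 6 months for Acadl and Ppargc1a and below them for Acads, Hadhb and Echs1, while Esrra is lower with exercise in wild type.

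Hadh, the dehydrogenase for 3-hydroxyacyl-CoA, differed most in its exercise values between genotypes. It had 124, 452, 204, 236 and 178 CPM in exercised wild type, against 735, 426, 394, 704 and 534 CPM in regular-activity wild type, a 2.34-fold fall (log2 fold change -1.22, SE 0.324, edgeR adjusted p = 0.016). These groups overlapped, as the exercised library at 452 CPM lay above the regular-activity ones at 426 and 394 CPM. In heterozygotes Hadh had 579, 474, 372, 220.2 and 461 CPM with exercise, against 291, 488, 371, 317 and 306 CPM without, also with overlap, and no call (0.25). Both exercise effects differed by 1.47 (SE 0.454, edgeR adjusted p = 0.755), which did not pass the test over all genes. Of the 34 genes 0 were called for a difference of the exercise effect between genotypes (0.0128% of all genes, 0% higher and 0.0128% lower). In edgeR 3 had an unadjusted p under 0.05 (4.91% of all genes), which were Hadh, Esrra and Cpt1a (0.48, SE 0.18, edgeR adjusted p = 0.92), and DESeq2 and limma-voom also called 0.

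Because Hadha and Hadhb start next to each other and their proteins form 1 complex, their ratio was compared, a choice made after their values were seen. Hadha was not called with exercise in either genotype. The log2 ratio of Hadha to Hadhb CPM was 0.94 ± 0.152 in exercised wild type and 0.27 ± 0.0943 in regular-activity wild type, and 0.97 ± 0.166 in exercised heterozygotes and 0.29 ± 0.0601 in regular-activity heterozygotes (SD, n = 5). The lowest exercised library was at 0.82 and the highest regular-activity library at 6 months at 0.38. The difference was 0.67 in wild type and 0.69 in heterozygotes. Between genotypes the mean ratio differed by 0.03 with exercise, 0.02 at 6 months and -0.05 at 3 months, each less than the SD within the groups. As the pair was picked for its different exercise values, these are a description, with no test.

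**Figure D5:**
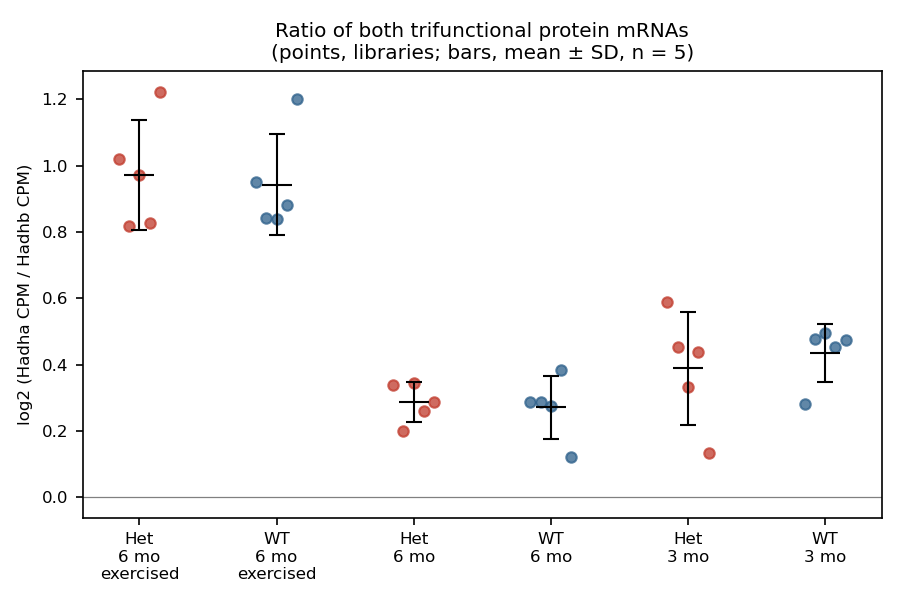
Log2 ratio of Hadha to Hadhb CPM in every library (points; red heterozygotes, blue wild type) with mean ± SD (bars, n = 5) in the 6 groups. The 10 exercised libraries lie at 0.82 to 1.22, above all other libraries.

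Exercised heterozygotes were also set against regular-activity wild type, a comparison that shares its libraries with the genotype and exercise comparisons above. Of the 34 genes, 19 were called, 2 higher and 17 lower (13.1% of all genes, 5.92% higher and 7.2% lower), with a median log2 fold change of -0.41. Acot1 had 7.03, 7.74, 5.87, 2.37 and 3.62 CPM in exercised heterozygotes, against 19.97, 14.4, 25.2, 30.3 and 17.3 CPM in regular-activity wild type, and fell 4.04-fold (-2.01, SE 0.354, edgeR adjusted p = 0.000331). All exercised heterozygotes lay below all regular-activity wild types. Acads was 2.04-fold lower at 131.5 ± 33.9 against 268.5 ± 22.3 CPM (SD, n = 5, -1.03, SE 0.159, edgeR adjusted p = 3.99e-05). The other genes called lower were Fabp3, Cpt2, Mlycd, Acacb, Acadvl, Hadhb, Echs1, Acaa2, Eci1, Eci2, Decr1, Etfdh, Acot2, Acot7 and Esrra, at -0.94 to -0.37. Acadl (0.53) and Ppargc1a (0.89) were higher. In every fit that left out 1 library 12 of the 19 were called, and Cpt2, Acacb, Acadvl, Decr1, Etfdh, Ppargc1a and Esrra were lost in at least 1. Without exercised heterozygote 4 the call ended for Cpt2, Acacb, Acadvl, Decr1, Etfdh and Esrra, and 13 of 34 genes were called. Ppargc1a was not called without exercised heterozygote 1 or regular-activity wild type 5. A fit of these 2 groups alone called 12. With GC and length trends removed Acacb, Acadvl, Cpt2, Esrra and Ppargc1a were no longer called. All 9 macrophage markers had higher fitted levels in exercised heterozygotes (median 0.37, 1 called), as had 8 of 10 fibroblast markers (0.42). Of 6 adipocyte markers 5 had lower ones (-1.20). Without exercised heterozygote 4, only 4 of 9 macrophage markers (-0.09) and 1 of 10 fibroblast markers (-0.39) were higher, with 0 called. Of the ventricular myocyte markers 2 were called higher and 2 lower. The part of these cells was not tested. In 10 of 34 genes all exercised heterozygotes lay below all regular-activity wild types (6.67% of all genes) and in 1 of 34, Acadl, above (5.5%).

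Between 3 and 6 months, Etfb was the 1 gene of 34 called in wild type, and it was lower (0.86% of all genes, 0.398% higher and 0.462% lower). It was also the 1 gene with every 6-month library below every 3-month one (2.17% of all genes), and 0 lay above (1.71%). Etfb, the beta subunit of the electron transfer flavoprotein, had 26.8, 24.2, 20.2, 29.4 and 28.1 CPM in regular-activity wild type at 6 months, against 41.7, 52.9, 42.6, 58.5 and 50.8 CPM at 3 months (log2 fold change -0.94, SE 0.176, edgeR adjusted p = 0.00391). In heterozygotes it had 20.03, 22.1, 21.1, 23.0 and 22.4 CPM at 6 months, against 58.0, 51.9, 46.1, 32.8 and 37.1 CPM at 3 months (-1.06, SE 0.177, edgeR adjusted p = 0.000422). The ages did not overlap in either genotype, and its counts share exon bases with 2 other genes, as given above. In heterozygotes 33 of the 34 genes had lower fitted levels at 6 months (median -0.31), against 52.2% of all genes (median -0.02). Of the 34, 7 were called, all lower (3.43% of all genes, 1.46% higher and 1.96% lower). In 8 of 34 every 6-month heterozygote lay below every 3-month one (2.84% of all genes), and in 0 above (4.4%).

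The genes called lower with age in heterozygotes, besides Etfb, were Cpt1b, Acacb, Acadl, Eci1, Acot7 and Esrra. Esrra had 151, 154, 122, 131 and 126 CPM in heterozygotes at 6 months, against 177, 172, 219, 243 and 234 CPM at 3 months, with no overlap (log2 fold change -0.61, SE 0.115, edgeR adjusted p = 0.0017). Cpt1b had 2.16, 3.47, 3.99, 3.69 and 3.27 CPM at 6 months, against 12.5, 13.0, 10.7, 4.47 and 5.76 CPM at 3 months (-1.49, SE 0.32, edgeR adjusted p = 0.00688), where heterozygotes 1, 2 and 3 were high and 4 and 5 low. Leaving out 3-month heterozygotes 1 and 2, chosen after seeing the data, ended its call (-1.07). That fit newly called Cpt2 (-0.62), Mlycd (-0.62) and Acot2 (-0.46) lower. Counts of Cpt1b are among the uncertain ones given above. Acacb, the acetyl-CoA carboxylase that makes malonyl-CoA at mitochondria, was at -0.46 (edgeR adjusted p = 0.046), Acadl at -0.43 (edgeR adjusted p = 0.014), Eci1 at -0.57 (edgeR adjusted p = 0.0221) and Acot7 at -0.50 (edgeR adjusted p = 0.0432). Cpt1b, Etfb and Esrra were called in every fit that left out 1 library. The number called was 3 without 6-month heterozygote 4, 5 without 3-month heterozygote 5, and 4 without 3-month heterozygote 3 or 4 or 6-month heterozygote 1, 3 or 5. Of the 34 genes 0 were called for a difference of the age effect between genotypes (0% of all genes, 6 of 34 at an unadjusted p under 0.05 in edgeR against 8.04% of all genes, and 0 also called by DESeq2 and limma-voom). Of these differences 33 of 34 were negative (median -0.27), against 53.6% of all genes (median -0.03). Over the same ages all 10 fibroblast markers had higher fitted levels in heterozygotes, 5 of them called, and all 9 macrophage markers tested did, 4 of them called. All 10 endothelial markers were also higher (median 1.03, 2 called), and 1 pericyte and smooth muscle marker was called higher. All 12 ventricular myocyte markers had lower fitted levels, 2 of them called, as had 5 of 6 adipocyte markers (-1.45). Their part in these results was not tested.

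A wider list of 84 other lipid genes, covering uptake and storage, activation, peroxisomal and propionate steps, further thioesterases, ketone bodies, synthesis and regulators, had 80 genes tested. In regular-activity heterozygotes against wild type 58 of 80 had lower fitted levels, with a median log2 fold change of -0.13 and 0 called in edgeR (0.135% of all genes). With exercise the genotype comparison gave 60 of 80 lower, also a median of -0.13 and 0 called in edgeR (0.404% of all genes). By exercise 5 (6.25%) were called higher and 7 (8.75%) lower in wild type, against 4.64% and 5.05% of all genes. In heterozygotes 7 (8.75%) were called higher and 3 (3.75%) lower, against 5.34% and 3.48%, so the lower share was near that of all genes. Lpl, the lipase that frees fatty acids from lipoproteins, rose in both genotypes (0.49 in wild type, 0.56 in heterozygotes). So did Prkaa1 (0.40 and 0.45) and Prkaa2 (0.38 and 0.58), the catalytic subunits of the energy sensor AMPK, and the ERR gamma gene Esrrg (0.41 and 0.64). Ech1, an isomerase of the dienoyl pathway, fell in both (-0.76 and -0.65), as did the peroxisomal thiolase gene Acaa1a (-0.61 and -0.51). Prkag1, a regulatory AMPK subunit, was called lower in wild type (-0.63), and Rxrg, an RXR partner of PPAR, was called lower in wild type (-0.54) and with age in heterozygotes (-0.59).

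Fold changes with exercise fell with GC content among the 34 genes as among all genes. Pearson's r across genes was -0.28 over the 34 and -0.28 over all genes in wild type, and -0.26 and -0.23 in heterozygotes, and genes are not independent replicates. With age r was -0.55 over the 34 genes and -0.20 over all genes in wild type, and -0.42 and -0.08 in heterozygotes. Between genotypes it was -0.36 and -0.12 at 3 months, and -0.11 and -0.03 at 6 months with regular activity. Between genotypes in the exercised groups it was 0.003 and 0.02. The 34 genes had a median GC content of 51.31% in their longest transcript, against 49.53% over the genes tested.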

How the data were processed

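Total RNA of cardiac myocytes was depleted of ribosomal RNA and sequenced strand-specifically from both ends, per the labels' protocols. The authors deposited 1 table of raw read counts per gene for all 30 libraries, made with Trim Galore, HISAT2 and featureCounts on mm10, per the submitters' processing notes. The annotation release, the strand setting and any filters are not given in the sources used here. The table held 52550 genes and 23 spike-in controls, which were left out of library sizes and tests.

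Genes kept by filterByExpr (15587) were fitted over all 6 groups with edgeR 4.0.16's quasi-likelihood test (R 4.3.3, TMM scaling, robust, 24 residual degrees of freedom). P-values were adjusted by Benjamini-Hochberg over all genes tested and called under 0.05. SE is the size of the log2 fold change divided by the square root of F. CPM used TMM-scaled library sizes, of 11232143 to 23710331 counts before scaling. The fit was also run on simulated counts, drawn without libraries that stand apart or GC trends. The outcome of that run is not given here, and no result rests on it. Groups came from the labels, with 5 libraries each. Alternatives were DESeq2 1.42.0 (size factors and Wald test), the replicate number as a block, no filter on low counts, limma-voom with quality weights (limma 3.58.1), fits of the compared groups only, leaving out each library, and a fit without mitochondrial genes and the 10 genes of highest count. Removal of GC and length trends and leaving out libraries that stood apart were chosen after seeing the data. The 34 genes and the lists of lipid and marker genes were chosen with earlier results of these data known. All 34 genes could be named. Of the other lipid genes, up to 8 called in at least 1 comparison were named, by smallest p. Gene positions are from GENCODE M21 (52403 gene IDs matched).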

Additional observations from a re-analysis of the deposited data

Results flagged for a closer look

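In 15 of 204 pairs of a gene and a group, 1 library lay far from the other 4 (gap over range above Dixon's critical value of 0.71). Chance gives about 1 in 20 such pairs. In exercised heterozygote 4, the lowest of its group, Slc27a1 had 113.8 CPM, Acsl1 927.8, Cpt2 128.3 and Acot7 25.72. In exercised wild type 1, Fabp3 had 1674 CPM, Acadl 256.9, Acadvl 468.1 and Etfb 22.97, each the lowest, and Ppargc1a 451.0, the highest. Ppargc1a was also highest in exercised heterozygote 1, at 345.2 CPM. Regular-activity heterozygote 2 at 6 months was the highest of its group for Mlycd (135.5 CPM), Hadhb (1547) and Ucp3 (121.4). At 3 months Acaa2 was highest in heterozygote 4 (737.5 CPM) and Eci1 in wild type 1 (287.8).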

How the results depend on the processing

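No call reversed its direction under any alternative. Of 45 calls on the 34 genes, 42 held with DESeq2 size factors, 39 without the count filter, 42 without mitochondrial and the most abundant genes, 33 in fits of the compared groups only, 45 with limma-voom, 45 with the DESeq2 Wald test and 35 with GC and length trends removed. With the replicate block 39 held. Replicate numbers did not pair the samples (correlations of deviations -0.252 to 0.154, and 3 of 5 samples at most correlated best with their own number). The 6-month genotype count of 1 was 0 with the replicate block, with DESeq2 size factors and without mitochondrial and top genes, 5 with the compared groups only and 11 with limma-voom. In the exercised genotype comparison the count of 1 was 0 with the compared groups only and 3 with limma-voom. For exercise in heterozygotes the count of 7 was 11 with limma-voom and 11 without exercised wild type 1 and heterozygote 4. For exercised heterozygotes against regular-activity wild type, 19 was 12 with the compared groups only. For age in heterozygotes, 7 was 4 without the filter. Leaving out 1 library gave 0 to 1 called for genotype at 6 months, 0 to 1 with exercise, 7 to 11 and 5 to 10 for exercise in wild type and heterozygotes, 13 to 19 for exercised heterozygotes against regular-activity wild type and 3 to 7 for age in heterozygotes. Apart from the libraries left out, the cause was not tested.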
